A study of Drosophila melanogaster with 9 samples.

Results

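Long noncoding RNA (lncRNA) genes of *Drosophila melanogaster* were followed in RNA from whole testes of *U2af38* RNAi, *SRPK* RNAi and control males. The genes were taken by name: their FlyBase symbol begins with lncRNA:, they lie outside the Y chromosome, and the dosage compensation RNAs *roX1* and *roX2* were left out. Of 17575 genes in the count table, 1933 had such a symbol, and the 1838 with at least 10 fragments summed over the 9 libraries were kept. The genes were thus chosen by their summed fragment count, and no comparison between genotypes entered the choice. Of the 95 genes below the minimum, 23 had no fragment at all, 11 had 9 fragments, and 8 of the genes kept had exactly 10. All 1838 are annotated as noncoding RNA genes in the reference annotation, which matches their label.

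Each genotype was represented by 3 libraries of ribosomal RNA-depleted, strand-specific total RNA from adults aged 1 to 3 days that were raised at 25 °C. The hairpins against *U2af38* and *SRPK* were driven by *bam-GAL4*, which is switched on partway through spermatogonial divisions, so the stem cells, the youngest spermatogonia and the somatic cells of the testis were not targeted. Controls were the parental *bam-GAL4* stock or siblings from the same cross, and which of these a library holds is not given in the sources used here. *U2af38* RNAi germ cells stop as spermatocytes, while *SRPK* RNAi testes go on to form sperm that do not move. *U2af38* encodes the small subunit of U2AF, which recognizes the 3′ splice site, and *SRPK* encodes a kinase that phosphorylates the serine- and arginine-rich splicing factors.

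lncRNAs are transcripts without a long open reading frame, and most are made by RNA polymerase II. The fly testis makes more of them than most other tissues, many in spermatocytes, and some are needed for sperm to mature. A few have well described roles elsewhere, as scaffolds of nuclear bodies, as precursors of microRNAs or piRNAs, or as RNAs transcribed through regulatory regions of Hox genes. Many of the genes here carry only a CR number.

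Between 18497748 and 30002574 fragments were counted per library. *U2af38* was at 2.46, 4.37 and 3.10 CPM (the gene's share of the library's fragments on the usual per-million scale, corrected with TMM factors) in *U2af38* RNAi testes, against 37.5, 42.3 and 41.1 CPM in control testes. *SRPK* was at 69.0, 64.4 and 68.1 CPM in *SRPK* RNAi testes, against 273, 248 and 281 CPM in control testes, which matches the labels. In *U2af38* RNAi testes *SRPK* was above control, at 610, 588 and 658 CPM (log2 fold change 1.21). *U2af38* was at 53.5, 50.3 and 47.5 CPM in *SRPK* RNAi testes (log2 fold change 0.32). Libraries of 1 genotype correlated with a Pearson's r of at least 0.98 across genes on the log scale. In bulk testis RNA, fewer cells of a type and less RNA per cell cannot be told apart, and this holds for every value below. The summed level of 15 spermatid markers ran from 2054 to 2123 CPM in *U2af38* RNAi, from 3693 to 4305 CPM in *SRPK* RNAi and from 4517 to 4856 CPM in control testes, with *cola* the only one at 0 in each genotype. Spermatocyte markers (11 genes) summed to 1423 to 1482, 1946 to 2076 and 1905 to 2070 CPM in *U2af38* RNAi, *SRPK* RNAi and control testes, with none at 0. Accessory gland markers varied between libraries of 1 genotype, from 10.3 to 196, from 15.1 to 1111 and from 10.1 to 498 CPM in *U2af38* RNAi, *SRPK* RNAi and control testes, none at 0.

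The lncRNA genes were short and mostly unspliced, and they were read at low levels. A single exon made up 1245 of the 1838 genes (67.7%), whereas 15.6% of protein-coding genes had 1 exon. Their median exon length was 633 bp, against 1756.5 bp in protein-coding genes. The median of the longest intron was 96.0 bp in the spliced ones, and *lncRNA:CR44357* had the longest at 103972 bp. In control testes the median level was 0.914 CPM per kb of exon, against 7.31 CPM per kb in protein-coding genes. By chromosome arm, 499 lay on 2L, 289 on 2R, 422 on 3L, 406 on 3R, 14 on chromosome 4 and 208 on X. In position, 1191 overlapped no other gene, 429 overlapped another gene on the opposite strand only, 169 lay inside a gene of the same strand and 49 overlapped a same-strand gene in part.

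Together these genes took up between 1.35% and 1.43% of all fragments in *U2af38* RNAi, between 1.27% and 1.32% in *SRPK* RNAi and between 1.48% and 1.57% in control libraries. The 100 most read genes held 77.0% of the lncRNA fragments in *U2af38* RNAi, 79.9% in *SRPK* RNAi and 75.6% in control testes. The lncRNA share of the transcriptome was therefore lower in either knockdown than in control testes, with no overlap between the 3 genotypes, and 921 genes reached a mean of 1 CPM in *U2af38* RNAi, 735 in *SRPK* RNAi and 835 in control testes. At 10 CPM or more there were 65 genes in *U2af38* RNAi, 142 in *SRPK* RNAi and 240 in control testes.

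In *U2af38* RNAi testes the lncRNA genes moved apart in both directions: many genes that were nearly silent in control testes were read, and many that were well read in control testes were lower. Of the 1838 genes, 1528 passed the filter on low counts and were tested with edgeR's quasi-likelihood test (Benjamini-Hochberg adjustment over all 14941 genes tested, threshold 0.05). A gene that passed only through the genotype in which it was high had to differ, so counts over tested genes are descriptive. Of the 1528, 675 were higher and 623 were lower in *U2af38* RNAi than in control testes, which is 84.9%, beside a background of 82.2% of all genes tested (44.7% higher and 37.5% lower). The share called was thus near the background, and the sizes were not. A difference of more than 1 on the log2 scale was called for 623 rises and 566 falls, 77.8% of the lncRNA genes tested, against 48.9% of all genes tested (27.1% higher and 21.7% lower). That contrast varied with the mean level over the 9 libraries. Under 1 CPM the shares were close, 83.9% of lncRNA and 80.2% of protein-coding genes. They were 73.2% and 52.2% from 1 to 10 CPM, and 77.6% and 33.9% over 10 CPM. The 3 libraries of each genotype did not overlap for 1334 genes (87.3%), beside 84.7% of all genes tested. The log2 fold changes had a median of 0.18 and quartiles of -1.98 and 3.16, against a median of 0.12 over all genes tested. The upper quartile was 2.65 when the 102 genes with a genotype at 0 were set at their floor of 3 fragments per library. The median's sign depended on the processing: it was -0.28 when scaled on ribosomal protein genes, -0.22 and -0.33 on lane 1 or lane 2 alone, and -1.11 over genes with at least 10 counts in every library, of which 570 were called (135 higher and 435 lower).

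*SRPK* RNAi moved fewer lncRNA genes, and most of these fell. Of the 1528 genes, 128 were higher and 500 were lower than in control testes, which is 41.1%, beside a background of 41.4% of all genes tested. In direction they differed from that background, in which 20.3% were higher and 21.1% lower, whereas 8.38% of lncRNA genes were higher and 32.7% lower. A lean to falls was not particular to lncRNA genes. Protein-coding genes with 1 exon were higher in 12.8% and lower in 28.6% of 1897, with a median log2 fold change of -0.07. Protein-coding genes with more than 1 exon were higher in 23.9% and lower in 18.1% of 10765. Falls of more than 1 on the log2 scale were called for 322 lncRNA genes and rises of that size for 97, together 27.4%, beside 5.37% and 3.81% of all genes tested, together 9.18%. The libraries did not overlap for 768 genes (50.3%), beside 50.5% of all genes tested. The median log2 fold change was -0.35 over lncRNA genes (-0.39 with genes at 0 set at their floor) and 0.01 over all genes tested. The 2 knockdowns share the 3 control libraries, so these sets of values are not independent.

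**Figure D1:**
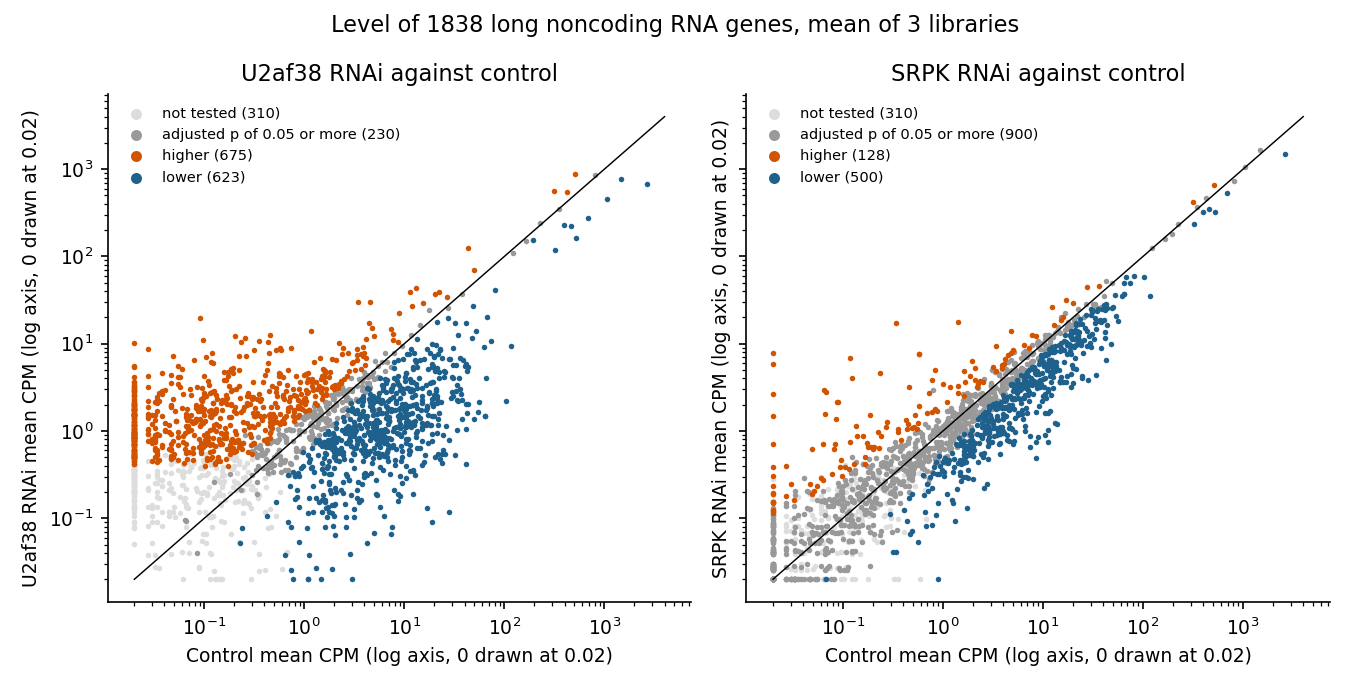
Mean CPM of 3 libraries for each of the 1838 lncRNA genes in U2af38 RNAi (left, y axis) and SRPK RNAi (right, y axis) against control testes (x axes), on log axes with 0 drawn at 0.02 and the line of equal level in black. In U2af38 RNAi the points spread to both sides of the line (675 higher, 623 lower), and in SRPK RNAi they lie along it with more below it (128 higher, 500 lower).

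**Figure D2:**
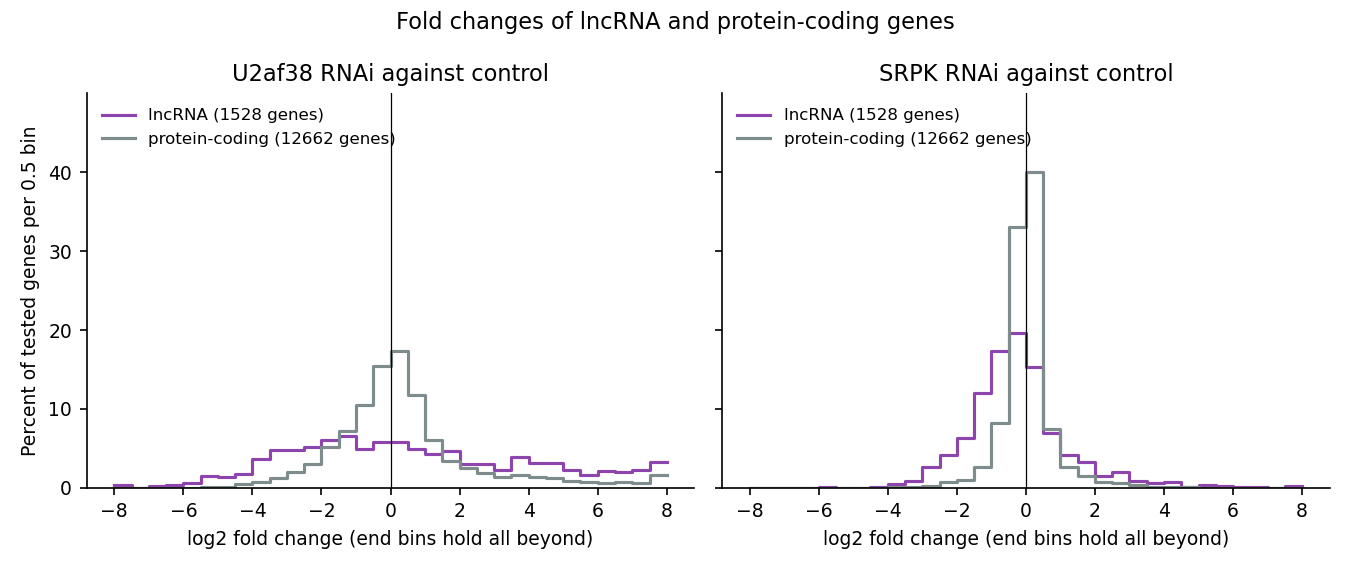
Share of the 1528 lncRNA genes and of the 12662 protein-coding genes tested in each bin of 0.5 on the log2 fold change axis, for U2af38 RNAi (left) and SRPK RNAi (right) against control, with values beyond 8 in the end bins. The lncRNA genes are spread more widely than the protein-coding genes in both panels, and in SRPK RNAi their curve lies to the left of 0 (median -0.35).

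The direction differed with the level of the gene. Levels were taken as the mean over the 9 libraries, which weights the genotypes equally. The same libraries give the fold changes, and a gene under 1 CPM could pass the filter through 1 genotype alone. Rises in *U2af38* RNAi under 1 CPM are thus partly built in, and the shares by level are a description. Among lncRNA genes with at least 10 counts in every library, 135 were higher and 435 lower in *U2af38* RNAi. Among the 152 lncRNA genes over 10 CPM, 19 were higher and 123 lower in *U2af38* RNAi testes, a share of 80.9% lower, with a median log2 fold change of -2.35. Protein-coding genes of that level were lower in 50.9% (3938 of 7738), with a median of -0.19. Between 1 and 10 CPM, 219 lncRNA genes were higher and 429 lower out of 781, whereas protein-coding genes went the other way, with 1845 higher and 742 lower out of 3499. Under 1 CPM, 437 lncRNA genes were higher and 71 lower out of 595, and protein-coding genes were likewise mostly higher (1106 higher and 66 lower out of 1425).

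In *SRPK* RNAi testes the share of lncRNA genes called lower was 62.5% over 10 CPM, 44.4% between 1 and 10 CPM and 9.75% under 1 CPM, where 16.3% were called in either direction. Of the 152 lncRNA genes over 10 CPM, 14 were higher and 95 were lower, with a median log2 fold change of -0.51, while 2145 protein-coding genes of that level were higher and 1918 lower out of 7738, with a median of 0.02. Between 1 and 10 CPM, 75 lncRNA genes were higher and 347 lower out of 781, while 579 protein-coding genes were higher and 507 lower out of 3499. Under 1 CPM, 39 lncRNA genes were higher and 58 lower out of 595, and 96 protein-coding genes were higher and 62 lower out of 1425. The spermatid markers, of which 13 of 14 tested were lower in *U2af38* RNAi (median log2 fold change -1.18) and 8 were lower and 1 higher in *SRPK* RNAi (median -0.20), moved with these falls, and their part in them was not tested.

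**Figure D3:**
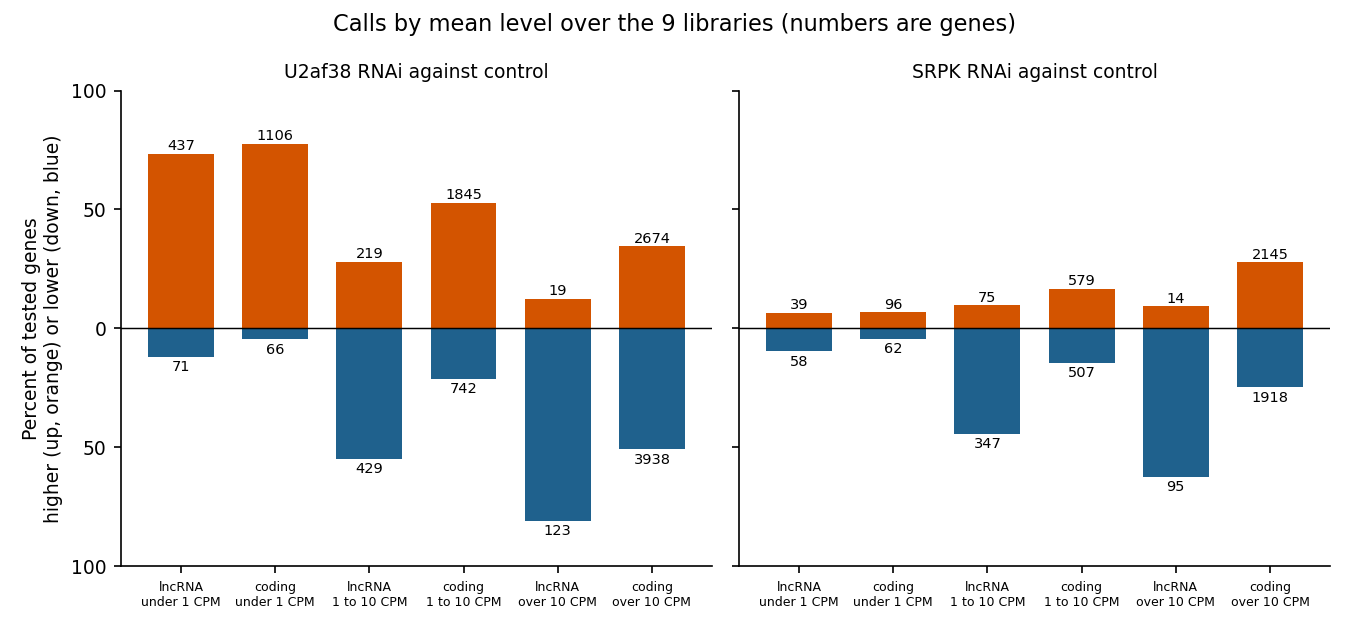
Percent of tested lncRNA and protein-coding genes that were higher (orange, upward) or lower (blue, downward) in each knockdown than in control testes, for genes with a mean over the 9 libraries under 1, from 1 to 10 and over 10 CPM, with the number of genes at each bar. Over 10 CPM, 123 of 152 lncRNA genes were lower in U2af38 RNAi and 95 of 152 in SRPK RNAi.

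Many lncRNA genes at the floor of detection in control testes were read in *U2af38* RNAi testes. No more than 3 fragments were counted in each control library for 518 genes, and 420 of these (81.1%) had more than 3 fragments in each *U2af38* RNAi library. A gene was kept only with at least 10 fragments over the 9 libraries, so a gene this low in control testes was kept through fragments in a knockdown, and these counts are a description with no test. After TMM scaling, 3 fragments stood for 0.111 to 0.123 CPM in *U2af38* RNAi libraries and for 0.123 to 0.170 CPM in control libraries. The same step held for 1701 of 2155 genes of all kinds (78.9%), so lncRNA genes were near that share. In *SRPK* RNAi, 37 of the 518 had more than 3 fragments in each library. In the other direction, 76 genes had no more than 3 fragments in each *U2af38* RNAi library, and 31 of these had more than 3 in each control library. Somatic markers differed from gene to gene. The 5 markers of fat body and hemocytes summed to 236 to 257 CPM in *U2af38* RNAi, 35.5 to 49.2 CPM in *SRPK* RNAi and 23.2 to 60.3 CPM in control testes, where *Yp1* was at 0, and of the 4 tested, 2 were higher and 2 lower in *U2af38* RNAi. The 6 neuron markers summed to 151 to 174, 103 to 118 and 109 to 113 CPM in *U2af38* RNAi, *SRPK* RNAi and control testes, with none at 0, and 3 were higher and 2 lower in *U2af38* RNAi. The 7 hub and cyst cell markers summed to 203 to 210, 222 to 249 and 235 to 247 CPM in the same genotypes, with none at 0, and 2 were higher and 3 lower in *U2af38* RNAi. Their part in the newly read lncRNA genes was not tested.

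A smaller share of lncRNA genes was lower on the X chromosome than on chromosomes 2 and 3, a split that was chosen after its values were seen. In *SRPK* RNAi testes, 16 X-linked lncRNA genes were higher and 19 lower out of 165 tested (11.5% lower), against 109 higher and 480 lower out of 1352 on chromosomes 2 and 3 (35.5% lower). The median log2 fold change was 0.00 on X and -0.42 on chromosomes 2 and 3. In *U2af38* RNAi testes, 100 X-linked lncRNA genes were higher and 35 lower (21.2% lower), against 567 higher and 586 lower on chromosomes 2 and 3 (43.3% lower).

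The split was present within levels. Over 10 CPM, 10 X-linked lncRNA genes were higher and 9 lower out of 23 in *U2af38* RNAi, against 9 higher and 113 lower out of 128 on chromosomes 2 and 3. In *SRPK* RNAi, 5 were higher and 3 lower out of the 23, against 9 higher and 92 lower out of the 128. Between 1 and 10 CPM, 13 of 65 X-linked lncRNA genes and 333 of 712 on chromosomes 2 and 3 were lower in *SRPK* RNAi. The shares ran the same way for protein-coding genes over 10 CPM, with 141 of 1209 lower in *SRPK* RNAi on X and 1748 of 6448 on chromosomes 2 and 3. No test of the difference between chromosomes was run.

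**Figure D4:**
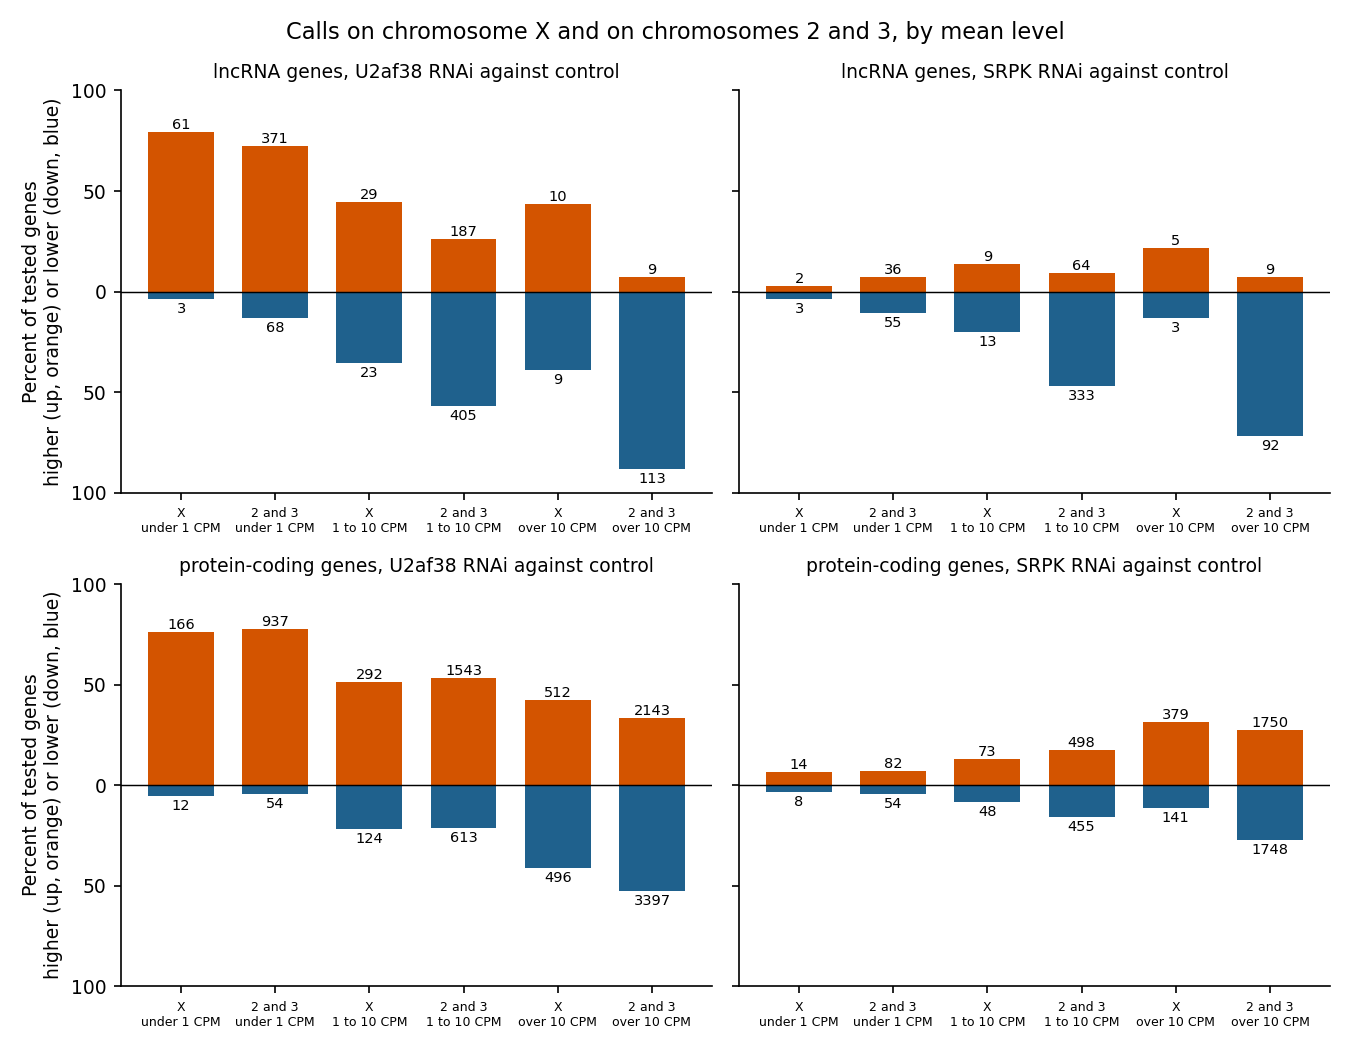
Percent of tested genes that were higher (orange, upward) or lower (blue, downward) in each knockdown than in control testes, for lncRNA genes (top) and protein-coding genes (bottom) on chromosome X and on chromosomes 2 and 3, split by mean level. Among lncRNA genes over 10 CPM, 3 of 23 on X and 92 of 128 on chromosomes 2 and 3 were lower in SRPK RNAi.

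The 8 best read lncRNA genes of the control testis lay on both kinds of chromosome. Per kb of exon, *lncRNA:CR9284* (chr2R:21803402-21804338, 2 exons) stood first with 2984 CPM per kb in control testes. It had 633, 700 and 687 CPM in *U2af38* RNAi and 1321, 1487 and 1669 CPM in *SRPK* RNAi, against 2492, 2646 and 2821 CPM in control testes. The genotypes did not overlap, and the log2 fold change was -1.98 ± 0.09 (SE) in *U2af38* RNAi (adjusted p = 6.92e-10) and -0.83 ± 0.09 in *SRPK* RNAi (adjusted p = 2.07e-05, edgeR's quasi-likelihood test, as for all adjusted p-values here). *lncRNA:CR43803* on 2L, with 162 ± 16.1 CPM in *U2af38* RNAi, 319 ± 35.7 in *SRPK* RNAi and 526 ± 96.1 in control testes (SD, n = 3 each), and *lncRNA:CR44455* on 2R, with 120 ± 14.3, 237 ± 10.3 and 320 ± 15.6 CPM, showed the same order.

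The other 5 of these 8 genes lay on X, where the order varied. *lncRNA:CR32652* had 745, 747 and 814 CPM in *U2af38* RNAi and 1510, 1620 and 1860 CPM in *SRPK* RNAi, against 1483 ± 22.3 CPM in control testes (SD, n = 3). With -0.95 ± 0.08 on the log2 scale (adjusted p = 2.03e-07) it fell in *U2af38* RNAi, and at 0.17 ± 0.08 (adjusted p = 0.109) it did not pass the threshold in *SRPK* RNAi. It did pass as a rise without *SRPK* RNAi replicate 1 (0.23, adjusted p = 0.0227) and with library size alone (0.28, adjusted p = 0.00163). *lncRNA:CR32658*, which lies inside the *Ten-a* gene on the same strand, averaged 456 ± 22.1, 1067 ± 70.5 and 1054 ± 45.7 CPM in *U2af38* RNAi, *SRPK* RNAi and control testes, SD over 3 libraries each. *lncRNA:CR32661* had 255, 270 and 297 CPM in *U2af38* RNAi and 509, 540 and 571 CPM in *SRPK* RNAi, against 669, 716 and 682 CPM in control testes. *lncRNA:CR32690* went up, with 890, 848 and 895 CPM in *U2af38* RNAi and 672, 608 and 689 CPM in *SRPK* RNAi, against 503, 533 and 506 CPM in control testes. Its groups did not overlap, and it was called higher in both knockdowns (log2 fold changes 0.77 ± 0.06 and 0.35 ± 0.06). The fifth, *lncRNA:CR43279*, was called higher in *U2af38* RNAi (0.38 ± 0.09, adjusted p = 0.00237), but its direction turned, to -0.088, when the libraries were scaled on ribosomal protein genes.

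Spliced and unspliced lncRNA genes had similar shares of rises and falls. In *U2af38* RNAi testes, 436 of 1026 single-exon lncRNA genes were higher and 430 lower, against 239 higher and 193 lower out of 502 with more than 1 exon. In *SRPK* RNAi the counts were 74 higher and 348 lower for single-exon genes and 54 higher and 152 lower for spliced ones. Among spliced lncRNA genes, the median log2 value was 1.08 in *U2af38* RNAi for a longest intron over 1000 bp (57 higher and 30 lower out of 98), 0.88 from 100 to 1000 bp (80 higher and 53 lower out of 156), and -0.15 under 100 bp (102 higher and 110 lower out of 248). Protein-coding genes of the same intron classes had medians of 0.18, 0.15 and 0.08. The intron classes were not split by level, and rises of genes under 1 CPM are partly built in, so these medians are a description.

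lncRNA genes inside another gene of the same strand were mostly lower in *U2af38* RNAi, with 32 higher and 83 lower out of 148 and a median log2 fold change of -1.04. Over 141 pairs of such a lncRNA gene and a coding host gene, the hosts had a median of 0.42, each host counted once per pair. Hosts and the lncRNA genes inside them thus did not move as 1 unit: both were called in 89 pairs, in the same direction in 46. Fragments from an unspliced host intron would be counted for a same-strand lncRNA gene inside it. Their part in these values was not tested. Across lncRNA genes on the opposite strand of a coding gene, both were called in 192 pairs and 79 of these went the same way. The strand-specific counting separates such pairs.

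Some lncRNA genes that fell lay opposite to, or inside, coding genes that rose. Chosen after their values were seen, 3 pairs are given here. *lncRNA:CR31526* (chr3R:4533248-4533940), opposite *CG34357*, had 0.08, 0.07 and 0.24 CPM in *U2af38* RNAi, against 14.8, 18.1 and 17.9 CPM in control testes. *CG34357* was at 32.9 CPM in *U2af38* RNAi and 3.71 CPM in control testes (log2 fold change 3.14 ± 0.10). *lncRNA:CR45762*, opposite *side-III*, averaged 0.19 ± 0.10 CPM in *U2af38* RNAi and 8.58 ± 1.20 CPM in control testes, while *side-III* was at 89.0 and 3.39 CPM. *lncRNA:CR43810*, inside *Cpr50Ca*, a cuticle protein gene, had 0.41, 0.41 and 0.44 CPM in *U2af38* RNAi and 11.3, 14.8 and 14.8 CPM in *SRPK* RNAi, against 37.4, 46.5 and 40.5 CPM in control testes, and *Cpr50Ca* was at 3.84 CPM in *U2af38* RNAi and 0.27 CPM in control testes.

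Close neighbours on the same strand tended to move together in *U2af38* RNAi. Of 78 lncRNA genes whose nearest coding gene lay within 500 bp on the same strand, both genes were called in 59 pairs, in the same direction in 42, and Spearman's rho across the pairs was 0.56. The rho was 0.35 over 121 pairs at 500 to 2000 bp on the same strand, and 0.19 over 130 pairs within 500 bp on opposite strands. It did not fall steadily with distance. On the same strand it was -0.005 over 191 pairs at 2000 to 10000 bp and 0.32 over 76 pairs beyond 10000 bp. In those 76 pairs both genes were called in 58, in the same direction in 36. On opposite strands rho was -0.11 over 112 pairs at 500 to 2000 bp and 0.05 over 161 pairs at 2000 to 10000 bp. Beyond 10000 bp it was -0.31 over 70 opposite-strand pairs. The pairs share libraries and scaling, so rho is given as a description. Where the lncRNA gene came after the 3′ end of its neighbour, 23 of 36 pairs with both genes called went the same way, and where it came before the 5′ end, 19 of 23 did. Named after their values were seen, *lncRNA:CR44777*, 27 bp before *CG9500*, fell with it (log2 fold changes -3.60 and -2.62), and *lncRNA:CR43808*, 269 bp before *CG9021*, rose with it (3.08 and 2.94). In contrast, *lncRNA:CR45344*, 278 bp after *CG43797*, was at -2.19 where its neighbour was at 2.92. In *SRPK* RNAi both genes were called in 20 of the 78 pairs, in the same direction in 14, with a rho of 0.07 across the pairs. Beyond 10000 bp on the same strand, both were called in 24 of 76 pairs, in the same direction in all 24, with a rho of 0.20.

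Among the lncRNA genes with a name other than a number or a TS symbol, 16 were tested, of which 11 were higher and 2 lower in *U2af38* RNAi (81.3%, beside 82.2% of all genes tested) and 4 were higher and 2 lower in *SRPK* RNAi (37.5%, beside 41.4%). The shares called were thus near the background. *Hsromega* (chr3R:21296127-21317836), the heat-inducible RNA that nucleates the omega speckles of hnRNP proteins, alone held between 7.45% and 8.83% of the lncRNA fragments in *U2af38* RNAi, between 4.58% and 5.92% in *SRPK* RNAi and between 3.87% and 4.71% in control libraries. Its own level was nearly flat, at 861, 919 and 817 CPM in *U2af38* RNAi and 813, 680 and 685 CPM in *SRPK* RNAi, against 848, 876 and 700 CPM in control testes. The groups overlapped, and neither log2 fold change passed the threshold (0.10 ± 0.10, adjusted p = 0.348, and -0.15 ± 0.10, adjusted p = 0.221). In *U2af38* RNAi its direction turned with the scaling, to -0.36 on ribosomal protein genes, and to calls of a rise with library size alone (0.73), upper quartile factors (0.40) and at least 10 counts in every library (0.28).

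*bxd* (chr3R:16742125-16773189, 6 exons), transcribed from the regulatory region upstream of the Hox gene *Ultrabithorax*, rose in both knockdowns. It had 12.5, 12.5 and 13.3 CPM in *U2af38* RNAi and 3.89, 2.33 and 3.34 CPM in *SRPK* RNAi, against 0.40, 0.40 and 0.57 CPM in control testes. The 3 genotypes were fully separated, with log2 fold changes of 4.76 ± 0.23 (adjusted p = 1.26e-09) and 2.76 ± 0.25 (adjusted p = 5.78e-06) against control and 2.00 ± 0.18 between the knockdowns (adjusted p = 5.02e-07). *CG31275*, a coding gene that overlaps *bxd* on the same strand, went the other way, at 30.1 CPM in *U2af38* RNAi and 76.3 CPM in *SRPK* RNAi, against 163 CPM in control testes. Fragments that fall in exons of both genes were not counted for either.

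The rest of the bithorax complex differed from gene to gene. *iab4* (precursor of the microRNA miR-iab-4) had 1.68, 1.22 and 1.45 CPM in *U2af38* RNAi and 0.32, 0.47 and 0.23 CPM in *SRPK* RNAi, against 0.65, 0.62 and 0.25 CPM in control testes. At 1.55 ± 0.37 on the log2 scale (adjusted p = 0.00197) it rose in *U2af38* RNAi, and it did not pass the threshold in *SRPK* RNAi. *iab8*, the precursor of miR-iab-8 on the other strand, had 10.3, 10.5 and 12.1 CPM in *U2af38* RNAi and 12.8, 10.4 and 14.6 CPM in *SRPK* RNAi, against 7.47, 7.10 and 8.58 CPM in control testes. It was higher in both (0.50 ± 0.13 and 0.70 ± 0.13), but its value in *U2af38* RNAi was 0.04 (adjusted p = 0.793) on ribosomal protein genes. *TS16*, a single-exon lncRNA between *bxd* and *iab8*, fell instead, to 0.45, 0.63 and 0.44 CPM in *U2af38* RNAi, against 6.11, 5.51 and 5.23 CPM in control testes (-3.44 ± 0.23, adjusted p = 2.19e-08). Among the Hox genes themselves, *Ubx* and *Abd-B* were higher in *U2af38* RNAi (1.11 ± 0.14 and 1.41 ± 0.09) and *abd-A* was lower (-0.95 ± 0.06).

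Other precursors of small RNAs differed from control by less than 1 on the log2 scale. *let7C*, which gives rise to the let-7 cluster of microRNAs, averaged 4.24 ± 0.68 CPM in *U2af38* RNAi, 2.00 ± 0.41 CPM in *SRPK* RNAi and 2.68 ± 0.32 CPM in control testes (SD, n = 3 each). It was called higher in *U2af38* RNAi (0.67 ± 0.21, adjusted p = 0.0117), a call lost without *U2af38* RNAi replicate 3 (0.54, adjusted p = 0.0541) and on ribosomal protein genes (0.21, adjusted p = 0.396). Between the knockdowns, *let7C* was higher in *U2af38* RNAi by 1.09 ± 0.22 (adjusted p = 0.000517), with no overlap of the libraries. *flam*, the flamenco piRNA cluster known from the somatic cells of the ovary, had 34.9, 34.7 and 33.2 CPM in *U2af38* RNAi and 32.3, 27.2 and 25.2 CPM in *SRPK* RNAi, against 28.5, 29.2 and 23.4 CPM in control testes. The *U2af38* RNAi libraries lay above the control libraries (0.34 ± 0.10, adjusted p = 0.00808), with the sign turned on ribosomal protein genes (-0.12).

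*yar* and *sphinx* rose in *U2af38* RNAi. *yar*, transcribed between *yellow* and *achaete* and tied to sleep, had 11.8, 9.82 and 10.9 CPM in *U2af38* RNAi and 1.09, 0.97 and 1.13 CPM in *SRPK* RNAi, against 0.55, 0.23 and 0.29 CPM in control testes. The groups were separated in both knockdowns (log2 fold changes 4.91 ± 0.25, adjusted p = 1.87e-09, and 1.57 ± 0.29, adjusted p = 0.00114). *sphinx* on chromosome 4, a young gene that affects male courtship, had 2.59, 2.04 and 2.14 CPM in *U2af38* RNAi, against 0.15, 0.06 and 0.25 CPM in control testes (3.78 ± 0.39, adjusted p = 1.59e-06). *cherub*, an RNA of neural stem cells, took another course. It had 26.8, 23.9 and 27.0 CPM in *U2af38* RNAi and 48.0, 42.5 and 44.8 CPM in *SRPK* RNAi, against 27.0, 26.2 and 29.4 CPM in control testes, and rose in *SRPK* RNAi (0.71 ± 0.08, adjusted p = 2.31e-05). The difference between the knockdowns was -0.80 ± 0.08 (adjusted p = 8.99e-07), while its value in *U2af38* RNAi against control, -0.09 (adjusted p = 0.294), was called as a rise on library size alone (0.55) and with upper quartile factors (0.22) and as a fall on ribosomal protein genes (-0.55).

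Among other named lncRNA genes, *Yu* and *dntRL* fell. *Yu* had 0.41, 0.41 and 0.68 CPM in *U2af38* RNAi and 9.92, 12.1 and 12.1 CPM in *SRPK* RNAi, against 19.7, 20.5 and 20.9 CPM in control testes (-5.33 ± 0.16, adjusted p = 2.55e-11, and -0.84 ± 0.11, adjusted p = 0.000115). *dntRL* was lowest in *SRPK* RNAi, with 2.14 ± 0.46 CPM in *U2af38* RNAi, 1.09 ± 0.11 CPM in *SRPK* RNAi and 4.59 ± 0.54 CPM in control testes (SD, n = 3 each). Its call in *U2af38* RNAi (-1.11 ± 0.21, adjusted p = 0.000329) was lost with library size alone (-0.47, adjusted p = 0.0514). *noe* (1.02 ± 0.21), *mimi* (0.74 ± 0.14), *marge* (2.18 ± 0.36) and *Irar*, which lies opposite the insulin receptor gene *InR* (3.45 ± 0.36), were higher in *U2af38* RNAi and did not pass the threshold in *SRPK* RNAi. Of these, *noe* lies inside *blot* on the same strand, and *blot* was lower in *U2af38* RNAi (-0.32 ± 0.06). The call for *mimi* in *U2af38* RNAi was lost on ribosomal protein genes (0.28, adjusted p = 0.0672). In *SRPK* RNAi, *mimi* was called as a rise on lane 2 alone (0.44, adjusted p = 0.0416), with library size alone (0.42, adjusted p = 0.0464), and without control replicate 1 (0.43, adjusted p = 0.0347) or *SRPK* RNAi replicate 3 (0.41, adjusted p = 0.0328). The heat-inducible *alphagamma-element:CR32865* had 1.52, 1.89 and 1.89 CPM in *U2af38* RNAi, against 2.86, 1.65 and 3.06 CPM in control testes, and was not called (-0.52 ± 0.29), but passed the threshold without control replicate 2 (-0.74, adjusted p = 0.0284) and on ribosomal protein genes (-0.98, adjusted p = 0.0106). *acal*, known from JNK signaling in the embryo, and *Vinr* were too low to be tested, with 37 and 15 fragments in all.

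**Figure D5:**
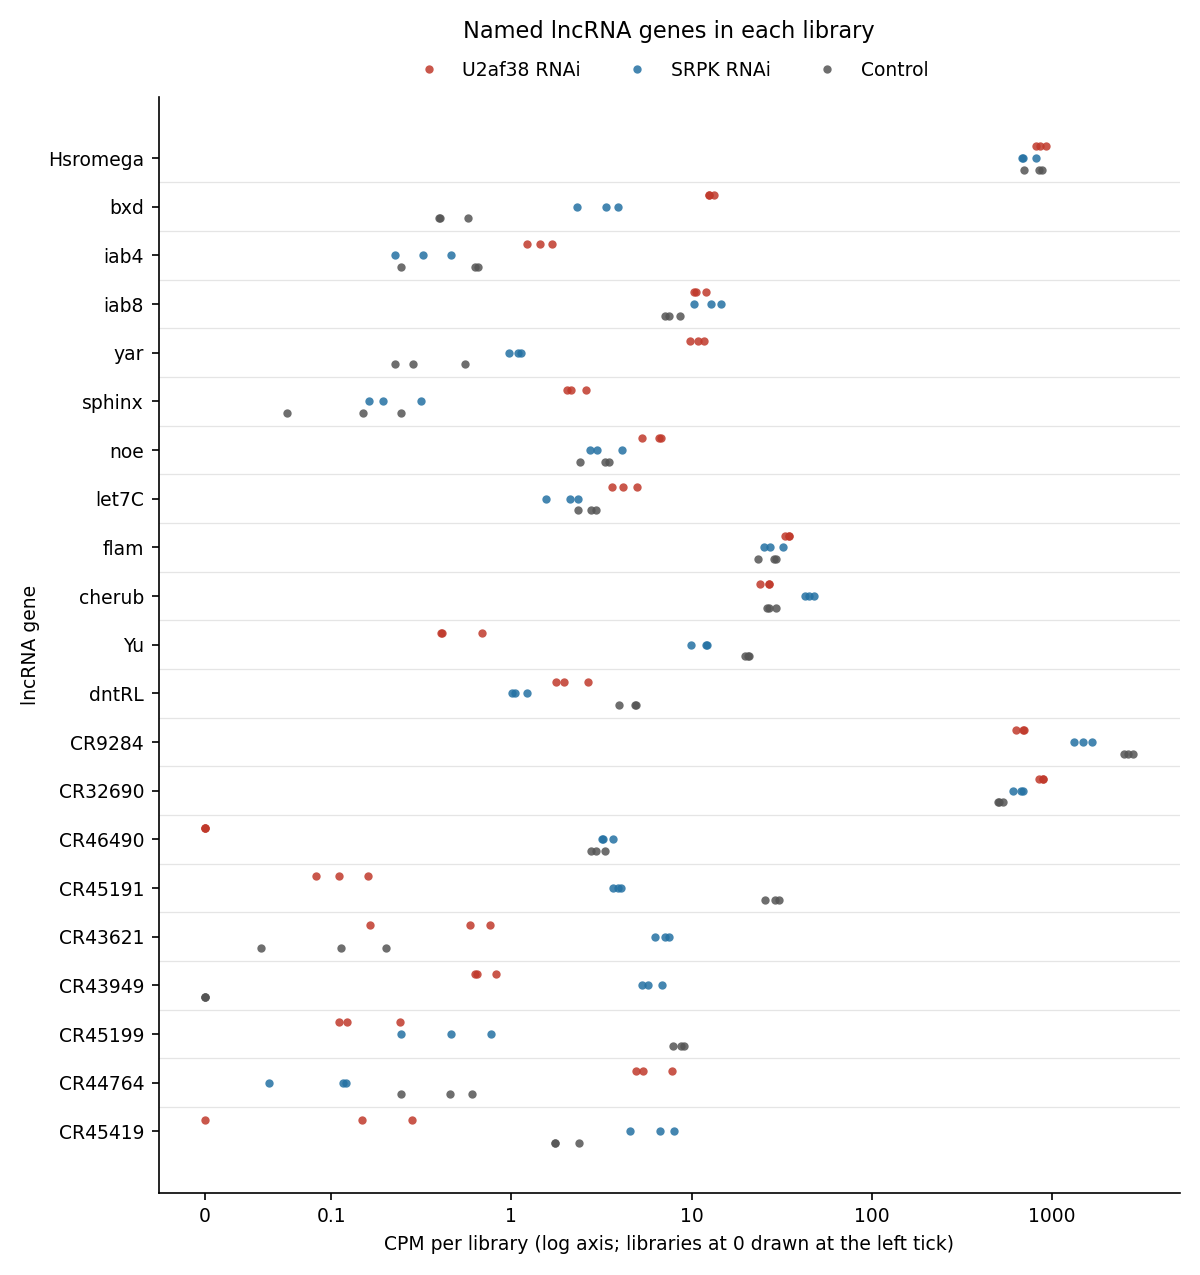
CPM in each of the 3 libraries of U2af38 RNAi (red, top of each row), SRPK RNAi (blue) and control testes (gray) for 21 named lncRNA genes on a log axis, with libraries at 0 drawn at the left tick. Hsromega overlaps between the genotypes, bxd and yar lie highest in U2af38 RNAi, and Yu and CR45191 lie lowest in U2af38 RNAi.

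Genes whose symbol begins with TS (for testis-specific) were called at about the background share. Of the 14 lncRNA genes with such a symbol, 12 were tested, of which 4 were higher and 6 lower in *U2af38* RNAi (83.3%, beside 82.2% of all genes tested), and none was higher and 4 were lower in *SRPK* RNAi (33.3%, beside 41.4%). *TS27* had 1.81, 2.37 and 2.42 CPM in *U2af38* RNAi and 4.70, 4.96 and 5.68 CPM in *SRPK* RNAi, against 7.72, 9.32 and 7.51 CPM in control testes, with no overlap between genotypes (-1.89 ± 0.17, adjusted p = 4.1e-07, and -0.68 ± 0.16, adjusted p = 0.00475). The call in *SRPK* RNAi was lost on lane 1 alone (-0.51, adjusted p = 0.0671). *TS20* had 0.41, 0.26 and 0.16 CPM in *U2af38* RNAi and 1.01, 1.12 and 1.26 CPM in *SRPK* RNAi, against 2.66, 2.84 and 2.90 CPM in control testes. *TS11* was lower in *U2af38* RNAi (-1.01 ± 0.16) and did not pass the threshold in *SRPK* RNAi (0.21 ± 0.16). *TS14* was the opposite case: it had no fragment in any control library and 3 in all of *SRPK* RNAi, but 3.45, 3.19 and 3.59 CPM in *U2af38* RNAi, at least 23.1-fold higher than the control floor of 3 fragments per library. *TS3* was higher in *U2af38* RNAi (0.70 ± 0.24, a call lost without control replicate 1 at 0.61, on lane 2 alone at 0.53 and on ribosomal protein genes at 0.25) and lower in *SRPK* RNAi (-1.71 ± 0.28), and the difference between the knockdowns was 2.42 ± 0.27 (adjusted p = 3.82e-06). *TS18* (3.98 ± 0.49) and *TS6* (1.63 ± 0.62) were the other rises in *U2af38* RNAi, and *TS6* was no longer called by DESeq2 (1.70, adjusted p = 0.0564), on ribosomal protein genes (1.17) or without control replicate 2 or 3 or *U2af38* RNAi replicate 2 or 3 (1.32 to 1.65). *TS1* and *TS26* were lower in *U2af38* RNAi (-1.69 ± 0.52 and -1.30 ± 0.36), calls lost on library size alone (-1.06 and -0.67), and *TS9* was called in neither knockdown, but rose in *U2af38* RNAi with library size alone (0.94, adjusted p = 0.00867). *TS4* was lower in *SRPK* RNAi (-1.84 ± 0.53), a call lost without control replicate 3 (-1.31, adjusted p = 0.103) or *SRPK* RNAi replicate 1 (-1.66, adjusted p = 0.0532) and on lane 2 alone (-2.01, adjusted p = 0.0669). The untested ones were *TS2* and *TS25*, and *TS25* had 15 fragments in *U2af38* RNAi, 0 in *SRPK* RNAi and 11 in control testes.

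Ranked by edgeR's log2 fold change, the largest rises in *U2af38* RNAi all started from 0 in the control libraries. The ranking covered called genes that averaged 1 CPM or more and whose libraries did not overlap. A rise from 0 has no counted denominator, so such genes lead the ranking by construction. Their fold values below are lower bounds and do not rank them against genes read in control testes. The falls and the *SRPK* RNAi lists below were ranked the same way. *lncRNA:CR45719* (chr2L:6133258-6133674) had 4.56, 5.45 and 6.49 CPM in *U2af38* RNAi and 0.32, 0.19 and 0.63 CPM in *SRPK* RNAi, against 0, 0 and 0 CPM in control testes, which is at least 37.2-fold and at least 2.59-fold above the control floor. *lncRNA:CR34006* (at least 37.0-fold), *lncRNA:CR46031* (at least 28.5-fold), *lncRNA:CR43492* (at least 24.9-fold) and *lncRNA:CR45669* (at least 24.7-fold) were likewise at 0 in control testes. They had 2, 0, 0 and 1 fragments in the *SRPK* RNAi libraries together.

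The genes with the largest falls were at 0.44 CPM or less in each *U2af38* RNAi library. *lncRNA:CR46490* (chr2R:20065864-20067081) had no fragment in any *U2af38* RNAi library and 3.69, 3.22 and 3.20 CPM in *SRPK* RNAi, against 3.31, 2.95 and 2.78 CPM in control testes. It was at least 25.4-fold lower than in control testes, and its level in *SRPK* RNAi overlapped that in control testes (0.16 ± 0.20, adjusted p = 0.556). *lncRNA:CR46446* on the strand opposite to it went up, at 3.82 CPM in *U2af38* RNAi and 0.16 CPM in control testes (log2 fold change 4.65 ± 0.42). *lncRNA:CR45191* (chr3R:30664778-30666142) had 0.08, 0.11 and 0.16 CPM in *U2af38* RNAi and 3.89, 4.03 and 3.65 CPM in *SRPK* RNAi, against 28.9, 30.4 and 25.5 CPM in control testes. It fell in a step through the genotypes (-7.84 ± 0.17, adjusted p = 3.72e-12, and -2.87 ± 0.11, adjusted p = 9.57e-09). *lncRNA:CR44326*, *lncRNA:CR45688*, *lncRNA:CR31526* and *lncRNA:CR43810* completed the largest falls, between -6.61 and -7.62 on the log2 scale.

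Of the 6 largest rises in *SRPK* RNAi, 4 were higher there than in *U2af38* RNAi by the test between the knockdowns. *lncRNA:CR43621* (chr2L:9584670-9586044), 2925 bp from *gcm*, had 0.16, 0.59 and 0.77 CPM in *U2af38* RNAi and 7.09, 6.24 and 7.53 CPM in *SRPK* RNAi, against 0.20, 0.11 and 0.04 CPM in control testes. Its *SRPK* RNAi libraries stood apart from all others (5.87 ± 0.48 against control, adjusted p = 3.13e-06, and -3.75 ± 0.37 for *U2af38* RNAi against *SRPK* RNAi, adjusted p = 1.28e-06). *lncRNA:CR43949* (chr3L:16020409-16021506) had 0.82, 0.63 and 0.65 CPM in *U2af38* RNAi and 5.71, 5.27 and 6.81 CPM in *SRPK* RNAi, with no fragment in control testes, at least 40.1-fold above the floor in *SRPK* RNAi. *lncRNA:CR46414* varied most among its *SRPK* RNAi libraries, at 8.79, 4.03 and 10.4 CPM, against 0 in each control library (at least 52.3-fold). *lncRNA:CR44229* had 0.42 ± 0.10 CPM in *U2af38* RNAi and 2.66 ± 0.26 CPM in *SRPK* RNAi (SD, n = 3 each), with 1 fragment in the control libraries together. *lncRNA:CR43434* was not called between the knockdowns (0.26 ± 0.28 for *U2af38* RNAi against *SRPK* RNAi, adjusted p = 0.419, but 0.78 and called with library size alone) and at 0 in control testes. The muscle sheath markers, all 7 of which were lower in *SRPK* RNAi, summed to 877 to 1006 CPM in *U2af38* RNAi, 567 to 861 CPM in *SRPK* RNAi and 800 to 1259 CPM in control testes, none of them at 0, and their part in these rises was not tested.

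Of the genes with the largest falls in *SRPK* RNAi, all but *lncRNA:CR44788* were also called lower in *U2af38* RNAi. *lncRNA:CR45199* (chr4:597624-598274) had 0.12, 0.11 and 0.24 CPM in *U2af38* RNAi and 0.24, 0.46 and 0.77 CPM in *SRPK* RNAi, against 7.87, 8.75 and 9.11 CPM in control testes. Either knockdown was well below control (-5.72 ± 0.37, adjusted p = 1.7e-08, and -4.13 ± 0.31, adjusted p = 1.76e-06). *lncRNA:CR44924*, 7242 bp from *cas*, had 1.35, 1.22 and 1.93 CPM in *U2af38* RNAi and 1.13, 1.12 and 1.40 CPM in *SRPK* RNAi, against 13.9, 14.2 and 13.4 CPM in control testes. The knockdowns overlapped each other there (0.30 ± 0.20, adjusted p = 0.183), but *U2af38* RNAi was called higher with library size alone (0.82), upper quartile factors (0.62) and at least 10 counts in every library (0.48). *lncRNA:CR45803*, *lncRNA:CR43849* and *lncRNA:CR45762* had log2 fold changes of -3.92, -3.51 and -3.51 in *SRPK* RNAi and of -4.98, -4.70 and -5.50 in *U2af38* RNAi. *lncRNA:CR44788* was at 1.07, 1.26 and 1.17 CPM in *U2af38* RNAi and 0.24, 0.16 and 0 CPM in *SRPK* RNAi, against 1.65, 2.33 and 1.23 CPM in control testes. It was called in *SRPK* RNAi (-3.60 ± 0.52), while its value in *U2af38* RNAi (-0.55 ± 0.38, adjusted p = 0.195) had the same direction and was called on ribosomal protein genes (-1.02, adjusted p = 0.0288).

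Set directly against each other, the knockdowns differed in most lncRNA genes. Of 1528 tested, 715 were higher and 521 lower in *U2af38* RNAi than in *SRPK* RNAi testes (80.9%), beside a background of 79.9% of all genes tested (42.3% higher and 37.6% lower), and the log2 values had a median of 0.43, against 0.07 over all genes and -0.48 over lncRNA genes with at least 10 counts in every library (187 higher and 348 lower). Differences of more than 1 were called for 648 higher and 432 lower genes (70.7%), beside 25.6%, 18.8% and together 44.4% of all genes tested, and the libraries did not overlap for 1268 genes (83.0%), beside 81.8%. Some genes were called in opposite directions against control. *lncRNA:CR44764* (chr2R:22690495-22691895) had 5.38, 4.93 and 7.74 CPM in *U2af38* RNAi and 0.12, 0.12 and 0.05 CPM in *SRPK* RNAi, against 0.60, 0.45 and 0.25 CPM in control testes, so that control testes lay between the knockdowns. Its fall in *SRPK* RNAi (-2.08 ± 0.53, adjusted p = 0.00821) was lost on lane 1 alone (-1.72, adjusted p = 0.1). The difference between the knockdowns was 5.89 ± 0.40 (adjusted p = 3.55e-08). *lncRNA:CR44344* on 2R showed the same order, at 4.32 ± 0.86 CPM in *U2af38* RNAi, 0.05 ± 0.05 CPM in *SRPK* RNAi and 0.56 ± 0.44 CPM in control testes (SD, n = 3 each). In *SRPK* RNAi libraries 3 fragments stood for 0.116 to 0.135 CPM, so the values of *CR44764* and *CR44344* there rest on few fragments. *lncRNA:CR45419* (chr3L:6369973-6370591) had the reverse order, with 0, 0.15 and 0.28 CPM in *U2af38* RNAi and 4.54, 6.67 and 8.02 CPM in *SRPK* RNAi, against 1.75, 2.39 and 1.76 CPM in control testes. The libraries of the 3 genotypes did not overlap, and the difference between the knockdowns was -5.42 ± 0.48 (adjusted p = 4.69e-07).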

How the data were processed

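Total RNA from testes of *U2af38* RNAi, *SRPK* RNAi and control males was sequenced in 3 libraries per genotype, each on 2 lanes. Reads were mapped by the authors to dm6 (STAR 2.7.1a), who deposited raw counts of fragments per gene and lane from featureCounts 1.6.2 (FlyBase 6.37, reverse-stranded), without options for multi-mapping or overlapping features. Fragments from near-identical copies or from exons shared by genes of the same strand are therefore missing. Libraries were selected for long fragments before sequencing, which can lower the counts of the shortest genes.

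Lanes were summed (18497748 to 30002574 fragments per library, 0 columns unmatched). Genes kept by filterByExpr (14941, of which 1528 were lncRNA genes) were scaled with TMM and tested with edgeR 4.0.16 in R 4.3.3 in 1 model of all 9 libraries, without a block, at an adjusted p of 0.05 (common dispersion 0.0153). Standard errors were taken from the fold change and F. CPM values carry the TMM factors. Against libraries at 0, a floor of 3 fragments per library was used. Floors cover counting error only. The fit was also run on counts simulated from control means with a single common dispersion and 200 changed genes. In these data most genes were called in *U2af38* RNAi, so that run cannot check the scaling or the spread here. Symbols came from Ensembl release 115, in which 17512 of 17575 genes had an entry. Tables and plots used Python 3.11.15, pandas 2.3.3 and matplotlib 3.10.9.

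The lncRNA genes, lists and tests were chosen with earlier results of these data known. The genes named are those with a symbol other than CR and digits, the 8 with the highest level per kb in control testes, per knockdown the 6 largest rises and falls among called genes that averaged 1 CPM or more and whose libraries did not overlap, the 3 largest differences among genes called in opposite directions, and their neighbours. Alternatives were DESeq2 1.42.0, other filters and scalings, a replicate block, 2 genotypes only, each lane alone and each library left out. A planned search of promoter motifs was not run, and no sequence was used here.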

Additional observations from a re-analysis of the deposited data

How the results depend on the processing

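Counts of called lncRNA genes stayed within 1.5 times of the reported ones under all but 1 of the 19 alternatives. With only genes at 10 or more counts in every library, 570 were called in *U2af38* RNAi against control and 535 in *U2af38* RNAi against *SRPK* RNAi, since that filter removes genes silent in 1 genotype. Leaving out each library gave 1297 to 1357 calls in *U2af38* RNAi, 559 to 628 in *SRPK* RNAi and 1227 to 1300 between the knockdowns. Neither the labels nor the methods say whether same-numbered libraries were collected or prepared together. Deviations of same-numbered libraries from their genotype means correlated between -0.465 and 0.365. With 3 libraries per mean, these values cannot decide whether the numbers pair the samples. A replicate block gave 1275, 599 and 1218 called genes, against 1298, 628 and 1236. In *SRPK* RNAi the block added calls of a rise for *CR32652* (0.16, adjusted p = 0.0331) and *mimi* (0.30, adjusted p = 0.0349). With library size alone the called genes in *U2af38* RNAi against control were 802 higher and 532 lower, against 675 and 623.

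The median over lncRNA genes was less stable than the counts. In *U2af38* RNAi against control (0.18) it was -1.11 with at least 10 counts in every library, -0.22 and -0.33 on lane 1 or 2 alone, 0.81 on library size alone, 0.53 without a filter, -0.28 on ribosomal protein genes, 0.48 with upper quartile factors and 0.18 to 0.43 with libraries left out. The median of all genes shifted with the scaling too, by 0.64, -0.46 and 0.30 with library size, ribosomal protein genes and upper quartiles. In *SRPK* RNAi against control (-0.35) it was -0.53 with at least 10 counts, -0.44 on lane 2, -0.24 on library size, -0.27 without a filter, -0.42 on ribosomal protein genes, -0.54 with 2 genotypes only and -0.38 to -0.31 with libraries left out. Between the knockdowns (0.43) it was -0.48 with at least 10 counts, 0.23 and 0.13 on lane 1 or 2, 0.95 on library size, 0.66 without a filter, 0.038 on ribosomal protein genes, 0.75 with upper quartile factors and 0.42 to 0.57 with libraries left out. Where exons overlapped no other gene, the median of genes inside a same-strand gene was -1.56 in *U2af38* RNAi and -0.75 between the knockdowns, and that of genes with an opposite-strand overlap was -0.27, -0.58 and 0.24 in *U2af38* RNAi, in *SRPK* RNAi and between the knockdowns. With introns taken from the reference transcripts, the median of spliced genes in *U2af38* RNAi was 0.31.

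The chromosome and level shares, added after seeing the data, kept their order: in *SRPK* RNAi, X-linked genes were lower in 20.6% with at least 10 counts in every library and 23.1% with 2 genotypes only, against 57.5% on chromosomes 2 and 3 with at least 10 counts. In *U2af38* RNAi that share on chromosomes 2 and 3 was 65.6% with at least 10 counts. Signs turned for *Hsromega* (-0.36), *CR43279* (-0.088) and *flam* (-0.12) in *U2af38* RNAi on ribosomal protein genes, and for *cherub* with library size (0.55) and upper quartiles (0.22). Between the knockdowns they turned for *Hsromega* (-0.14), *CR43279* (-0.15) and *flam* (-0.11) on ribosomal protein genes and for *iab8* with library size (0.32). The causes of these shifts were not tested beyond the scaling itself. Over the single genes named, 44 other values lost the threshold and 33 gained it. Depth limits genes under 1 CPM, where 3 fragments are up to 0.162 CPM of a library before TMM.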
